A study of Homo sapiens with 6 samples.

Results

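Messenger RNA of 10 genes that other work names as direct targets of miR-183, miR-96 or miR-182 was compared between prostate epithelial cells with and without extra copies of these miRs. The genes were FOXO1, FOXO3, PDCD4, MTSS1, EZR, DKK3, SMAD4, CYLD, MITF and RECK. They were chosen by symbol and not by their values here, though with earlier results of these data known. All 10 were among the 14884 named genes of the arrays. The cells were RWPE-1, a benign human prostate epithelial line immortalised with papillomavirus genes. RWPE1-CTRL cells carried the lentiviral vector CD511B-1 with a scrambled insert, and RWPE1-183FC cells carried the same vector with the genomic miR-183 cluster. Both were sorted for the GFP of the vector as polyclonal populations and grown in KSFM with pituitary extract and epidermal growth factor. The vector, GFP and the sorting procedure are thus shared, and cells without virus were not analysed here. The groups were transduced and sorted as separate populations, so that differences between the populations and the insert cannot be told apart. The labels do not say whether the replicates stem from separate transductions. Each group had 3 biological replicates with 1 Affymetrix array each.

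A miR pairs through bases 2 to 8 from its 5′ end, the seed, with complementary sites that lie mostly in the 3′ UTR of a messenger RNA, and lowers its translation and usually also its level. An array measures only the RNA level, so that a target held back in translation alone would look unchanged. The 3 mature miRs of the cluster are shown because their seeds are near copies of each other. The sequences are from RefSeq (GRCh38.p14, minus strand), with the seed in capitals.
hsa-miR-183-5p: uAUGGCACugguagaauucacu
hsa-miR-96-5p: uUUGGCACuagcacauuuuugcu
hsa-miR-182-5p: uUUGGCAAugguagaacucacacu
They lie at chr7:129774967-129774988, chr7:129774739-129774761 and chr7:129770447-129770470. Counted from the 5′ end, the seeds of miR-183 and miR-96 differ by A2U and those of miR-96 and miR-182 by C8A. Each of these pairs shares 6 of 7 seed bases, and miR-183 and miR-182 share 5. The complements that a site would hold are GUGCCAU for miR-183, GUGCCAA for miR-96 and UUGCCAA for miR-182. The 3′ UTRs of the 10 genes were not searched for them here.

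The features named for the miR genes served as a check of the labels. The MIR96 feature was at 2.46, 2.67 and 1.92 on the log2 scale in RWPE1-CTRL replicates 1, 2 and 3 and at 5.19, 5.54 and 5.93 in RWPE1-183FC. The MIR183 feature lay apart in the same direction, while that of MIR182 overlapped between the groups (2.67 to 3.24 and 3.11 to 3.44). In limma over all 53617 transcript clusters, the probe groups that are summarised into 1 value each, the adjusted p were 0.0904 for MIR96 and 0.208 for MIR183. MIR183 was thus not called over all clusters, where the limit is an adjusted p under 0.2. Over named genes limma gave 0.00175 and 0.0348 with no filter. After the filter used for the 10 genes it gave 1.86e-27 and 2.49e-10 and called both. All RWPE1-CTRL arrays of both features lay under the median floor of that filter (3.39 on the log2 scale). Both features passed it through RWPE1-183FC alone, so that these filtered p are no support for a difference. Mature miRs were not measured on these arrays. Of the epithelial markers 7 of 10 were measured, all of them above the median of every array, with list means between 7.64 and 7.96 on the RWPE1-CTRL arrays and between 7.77 and 7.90 on those of RWPE1-183FC. Among them KRT19 fell and KRT15 rose between the groups (log2 fold changes -1.11 and 0.96, limma adjusted p = 0.00090 and 0.00633). Limma with no filter gave adjusted p of 0.137 for KRT19 and 0.180 for KRT15. The part of this keratin shift in the results below was not tested. Of the stromal markers 3 of 9 were measured (list means of 3.18 to 3.46 and 3.14 to 3.40), of the melanocyte markers 5 of 6 (3.58 to 3.72 and 3.57 to 3.86) and of the leukocyte and endothelial markers 4 of 8 (4.84 to 5.12 and 4.80 to 5.05). Past the filter were 0, 2 and 3 of these, and none of the 5 was called. DCN, LUM, TYR, TYRP1, MLANA, PECAM1 and CD14 had means below the array medians. The other markers of these lists lay above the array medians. CD68 had means of 9.43 in RWPE1-CTRL and 9.24 in RWPE1-183FC, near those of the epithelial marker KRT5 (9.61 and 9.41). In the same order SOX10 was at 4.996 and 4.87, PMEL at 4.17 and 3.97 and VWF at 3.87 and 3.89. The source of these signals was not tested. THY1, the stromal marker above the array medians, was at 5.02, 5.17 and 4.98 in RWPE1-CTRL and at 4.78, 4.97 and 4.97 in RWPE1-183FC. Its groups lay apart by a narrow margin, at a log2 difference of -0.15 (limma with no filter, adjusted p = 0.99975), and the part of this difference in the results below was not tested. The melanocyte markers PMEL and SOX10 differed by -0.19 and -0.13 on the log2 scale and the leukocyte markers CD68 and CD14 by -0.19 and 0.14, all with overlapping arrays.

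None of the 10 reported targets passed the test of the study's methods, which asks for a false discovery rate (FDR) under 0.2 and a fold change over 1.5 in limma. The 2 genes with the largest differences were PDCD4, a tumour suppressor that blocks translation initiation, and MTSS1, a membrane-bending actin regulator. Both had every RWPE1-183FC array below every RWPE1-CTRL array, whereas the other 8 overlapped between the groups. Of the 10 genes 9 had passed the filter on level and variance and could be called. Over all 9583 genes past this filter, 0.939% were called, 0.438% lower and 0.501% higher. With no filter 0.242% of 14884 were called, again without any of the 10. In simulations unchanged genes made up 47.7% of the calls after the filter, so that filtered adjusted p here understate the share of false calls. At an unadjusted p under 0.05 from the same limma test, 2 of the 9 were lower, PDCD4 and MTSS1, against 2.22% of the genes tested. With no filter this was PDCD4 alone, against 2.36% of 14884 genes. Groups lay apart with RWPE1-183FC lower in 2 of the 10, and over all genes in 4.57%. Across the 10 genes the median log2 fold change was -0.02, against 0.01 over all genes, with 6 lower and 4 higher means.

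**Figure D1:**
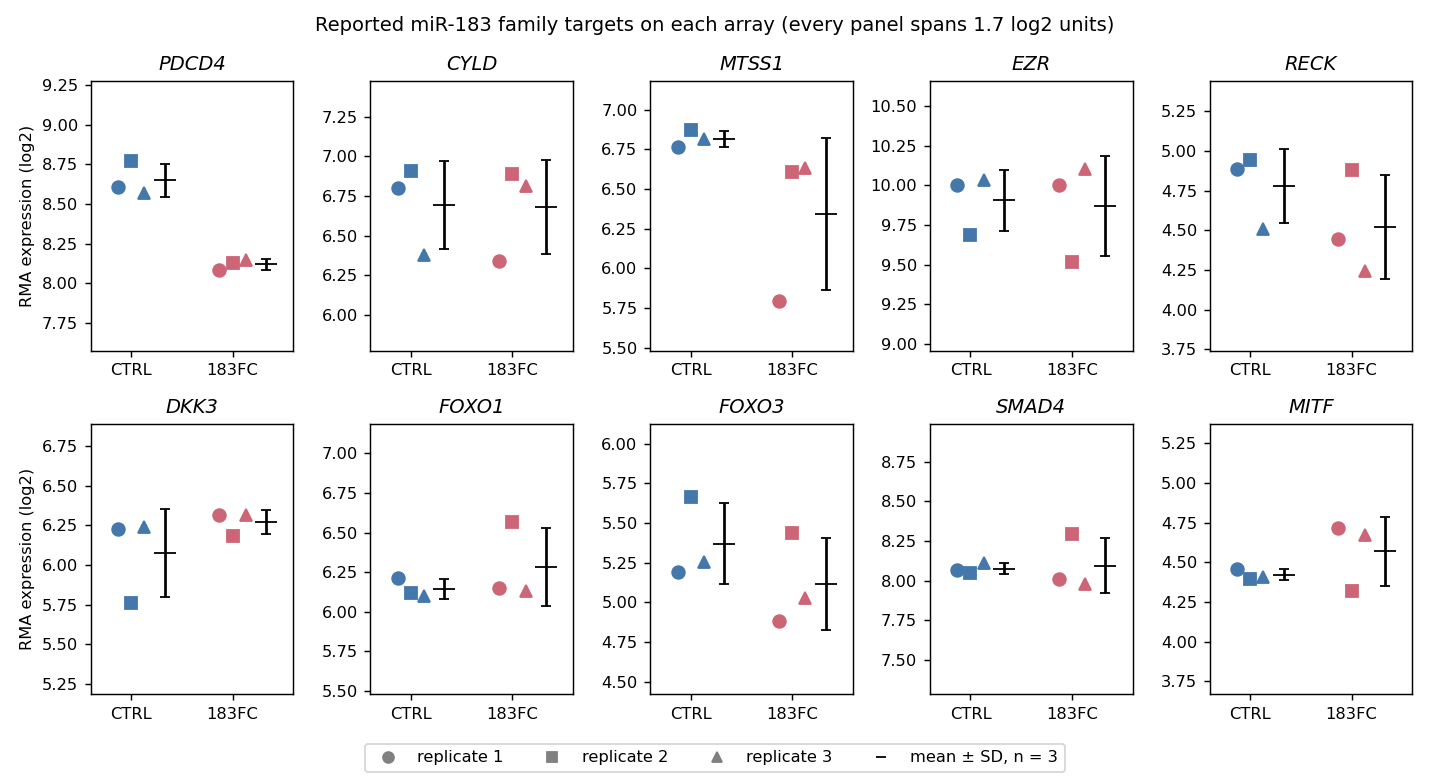
RMA expression on the log2 scale (vertical axes, each spanning 1.7 units) of the 10 genes on the 3 RWPE1-CTRL and 3 RWPE1-183FC arrays, with the replicate number as the symbol and the mean and SD beside each group. PDCD4 and MTSS1 lie apart between the groups, MTSS1 with 1 low array at 5.79, and the other 8 genes overlap.

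PDCD4 binds the RNA helicase eIF4A and keeps it out of the cap-binding complex that starts translation. It was at 8.61, 8.77 and 8.57 on the log2 scale in RWPE1-CTRL replicates 1, 2 and 3 and at 8.08, 8.13 and 8.15 in RWPE1-183FC. The 3 RWPE1-183FC arrays lay within 0.068 of each other, closer than the RWPE1-CTRL arrays (0.20), and the gap between the groups was wider than either spread. This is a log2 difference of -0.53 (standard error 0.22, limma adjusted p = 0.721), and 3 arrays against 3 allow no exact permutation p below 0.1, the value found here. Limma with no filter gave a standard error of 0.14 and an adjusted p of 0.543. Expressed as a level, RWPE1-183FC stood at 69.2% of RWPE1-CTRL, with a 95% interval of 55.9% to 85.6% from this fit. Once the fit took the replicate number as a block, the adjusted p from limma was 0.164, under the FDR limit, but the fold change stayed under 1.5. The labels give no such pairing, which was taken from these same data. Over all 18 alternative settings, several of which cannot move a fold change, the log2 fold change of PDCD4 ran from -0.57 to -0.47, with adjusted p from 0.164 to 1.

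PDCD4-AS1, a non-coding gene that neighbours PDCD4 without overlapping it in RefSeq, had a cluster whose mean was 5.29 ± 0.25 in RWPE1-CTRL (SD, n = 3) against 4.82 ± 0.23 in RWPE1-183FC (SD, n = 3). Its groups also lay apart, without a call over all clusters with no filter (limma adjusted p = 0.99992). A dimmer cluster of PDCD4-AS1, below the array medians at 2.51 and 2.37, overlapped. Among the translation factors and regulators around PDCD4, 8 of 14 listed genes were measured and 6 passed the filter, and none was called. BTRC, the ubiquitin ligase subunit that marks PDCD4 for breakdown, had a log2 difference of -0.39 with no overlap between groups (limma adjusted p = 0.999). For EIF4A3, an eIF4A relative of the exon junction complex, it was 0.21, with overlapping arrays. The helicase genes EIF4A1 and EIF4A2, whose products PDCD4 binds, were not analysed here.

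MTSS1 and EZR both act where the cell membrane meets actin. MTSS1, a protein of the I-BAR family that curves membranes, was at 6.76, 6.87 and 6.81 in RWPE1-CTRL and at 5.79, 6.61 and 6.63 in RWPE1-183FC. The RWPE1-CTRL arrays lay within 0.10, and RWPE1-183FC replicate 1 lay well below the other arrays of its group. The log2 difference was -0.47 (standard error 0.22, limma adjusted p = 0.931, exact permutation p = 0.1, the smallest possible). Without RWPE1-183FC replicate 1 it was -0.20, while with any other array left out it ran from -0.62 to -0.45. The 95% interval with no filter, from 51.2% to 101% of the RWPE1-CTRL level, included no change.

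Ezrin, encoded by EZR, tethers actin to membrane proteins. EZR was at 9.99997, 9.69 and 10.03 in RWPE1-CTRL and at 10.002, 9.51 and 10.1 in RWPE1-183FC. Replicate 2 was the lowest array of both groups, and the groups overlapped throughout. The log2 difference was -0.03 (limma adjusted p = 0.999), with a 95% interval of 73% to 131% of the RWPE1-CTRL level.

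FOXO1 and FOXO3 are forkhead transcription factors that AKT signalling keeps out of the nucleus and that switch on genes of cell cycle arrest, cell death and stress resistance. FOXO1 was at 6.21, 6.12 and 6.10 in RWPE1-CTRL and at 6.15, 6.57 and 6.13 in RWPE1-183FC. Replicate 2 of RWPE1-183FC stood above all other arrays, and the remaining 5 lay between 6.10 and 6.21. The log2 difference was 0.14 (limma adjusted p = 0.999), and without that array, where the filter would remove FOXO1, it was -0.0048. For FOXO3 the values were 5.19, 5.67 and 5.25 in RWPE1-CTRL and 4.88, 5.44 and 5.03 in RWPE1-183FC. Replicate 2 was the highest of both groups, and RWPE1-183FC was lower within each replicate number. The log2 difference of FOXO3 was -0.26 (standard error 0.22, limma adjusted p = 0.999), or 83.8% of the RWPE1-CTRL level with a 95% interval of 62.1% to 113%. FOXO3 alone of the 10 had 2 clusters. The dimmer one, at 4.58 ± 0.32 (SD, n = 3) and 4.69 ± 0.28 (SD, n = 3), had a log2 difference of 0.11, and the mean of both clusters gave -0.07. The genome also holds FOXO3B, a near copy of FOXO3, and its share in either cluster was not tested.

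SMAD4, the partner that carries TGF-beta and BMP receptor SMADs to their genes, was at 8.07, 8.05 and 8.11 in RWPE1-CTRL and at 8.01, 8.30 and 7.98 in RWPE1-183FC. Its variance over the 6 arrays lay under the floor of the filter, so that it could not be called. Limma with no filter gave a log2 difference of 0.02 (standard error 0.15, adjusted p = 0.99975), and the 95% interval of 80.8% to 127% of the RWPE1-CTRL level left no room for a change of 1.5-fold. DKK3 encodes a secreted glycoprotein of the dickkopf family that many tumours silence. DKK3 was at 6.23, 5.76 and 6.24 in RWPE1-CTRL and at 6.32, 6.19 and 6.32 in RWPE1-183FC. The low array was replicate 2 of RWPE1-CTRL, and without it the log2 difference of 0.20 became 0.039. The 95% interval of DKK3 ran from 88.4% to 149% of the RWPE1-CTRL level, so that its lower bound was the highest of the 10.

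CYLD removes ubiquitin chains from signalling proteins and thereby restrains NF-kB. It was at 6.80, 6.91 and 6.38 in RWPE1-CTRL and at 6.34, 6.88 and 6.82 in RWPE1-183FC. Each group had 1 low array, replicate 3 in RWPE1-CTRL and replicate 1 in RWPE1-183FC, and the means differed by -0.01 (standard error 0.22, limma adjusted p = 0.999). MITF, a transcription factor best known for specifying melanocytes, was at 4.46, 4.40 and 4.41 in RWPE1-CTRL and at 4.72, 4.32 and 4.67 in RWPE1-183FC. In RWPE1-183FC 2 arrays stood above and 1 below all RWPE1-CTRL arrays, at a log2 difference of 0.15 (limma adjusted p = 0.999). None of the 5 measured melanocyte markers lay apart between the groups. RECK, a membrane-anchored inhibitor of matrix metallopeptidases, was at 4.89, 4.94 and 4.51 in RWPE1-CTRL and at 4.45, 4.88 and 4.24 in RWPE1-183FC. The highest RWPE1-183FC array lay between those of RWPE1-CTRL, and the other 2 lay below them all. The log2 difference of RECK was -0.26 (standard error 0.22, limma adjusted p = 0.999), with a 95% interval of 61.6% to 114% of the RWPE1-CTRL level.

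**Figure D2:**
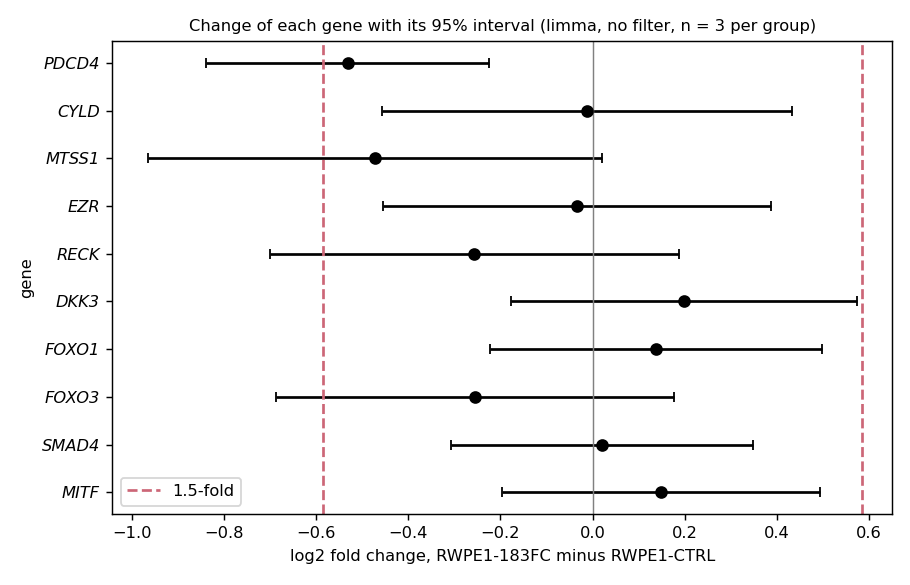
Log2 fold change of RWPE1-183FC against RWPE1-CTRL (horizontal axis) for each gene, with the 95% interval from limma with no filter and dashed lines at 1.5-fold. The interval of PDCD4 alone excluded 0, and those of PDCD4, MTSS1, RECK and FOXO3 reached past a 1.5-fold fall.

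The intervals set what these arrays can exclude. For FOXO1, EZR, DKK3, SMAD4, CYLD and MITF the lower bound was 72.8% to 88.4% of the RWPE1-CTRL level, so that a fall of 1.5-fold lay outside the interval. For FOXO3, RECK, MTSS1 and PDCD4 it was 51.2% to 62.1%, and such a fall lay inside. A p that missed the threshold therefore does not show that these 4 genes were alike in the groups. In bulk RNA, less RNA per cell and fewer cells that express a gene cannot be told apart.

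Replicate numbers were compared as pairs, although the labels give no pairing. Deviations from the group means correlated at 0.101, 0.511 and 0.29 for arrays of number 1, 2 and 3. The pair of number 1 lay below an unlike pair, RWPE1-CTRL 3 with RWPE1-183FC 1 (0.214), so that its pairing is uncertain. PDCD4, MTSS1, FOXO3 and RECK were lower in RWPE1-183FC within all 3 replicate numbers, and DKK3 was higher within all 3. The other 5 genes were mixed. Over all 14884 genes 13.4% were lower and 15.5% higher within all 3 numbers. For PDCD4 the differences were -0.53, -0.64 and -0.42 in replicates 1, 2 and 3. For MTSS1 they were -0.97, -0.26 and -0.18, and for FOXO3 -0.31, -0.23 and -0.22. PDCD4 and FOXO3 thus had differences of like size in the 3 numbers, while those of MTSS1 were uneven. For RECK they were -0.44, -0.06 and -0.27. CYLD turned its sign between replicate 1 (-0.46) and replicate 3 (0.44). In 3 of the 10 genes (FOXO3, CYLD and RECK) replicate 2 was the highest array of both groups, and in 3 (EZR, DKK3 and MITF) it was the lowest.

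**Figure D3:**
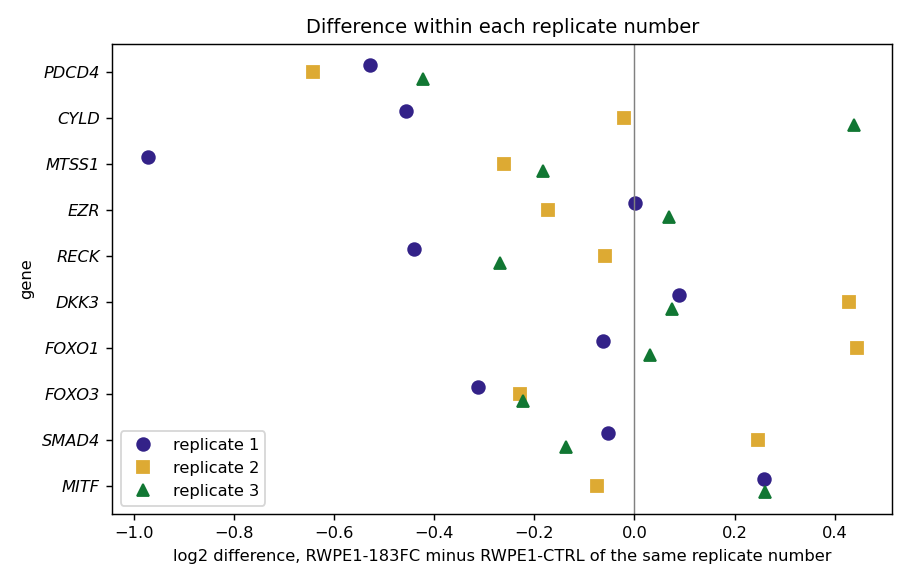
Log2 difference between RWPE1-183FC and RWPE1-CTRL arrays of the same replicate number (horizontal axis) for each gene, with 1 symbol for each number. All 3 symbols of PDCD4, MTSS1, FOXO3 and RECK lie below 0, and those of CYLD reach from -0.46 to 0.44.

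**Figure D4:**
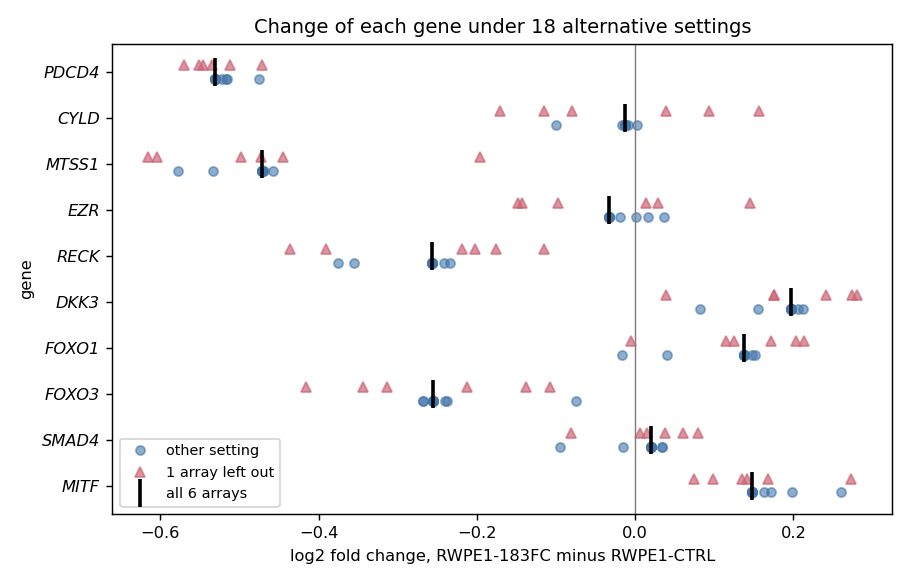
Log2 fold change of each gene (horizontal axis) with all 6 arrays, with 1 array left out and under the other alternative settings, 18 in all. Several settings alter only the test and repeat the value of all 6 arrays. PDCD4 stays between -0.57 and -0.47, MTSS1 reaches from -0.62 to -0.20, and EZR, CYLD, SMAD4 and FOXO1 cross 0.

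Relatives of the 10 genes were examined as a list of 23 symbols, with the TIMP genes listed for RECK by shared function only. Of the list 21 were measured and 16 passed the filter. None was called, and their median log2 fold change was 0.04. MTSS2, the closest relative of MTSS1, had a mean of 7.73 ± 0.10 in RWPE1-CTRL (SD, n = 3) against 8.001 ± 0.15 in RWPE1-183FC (SD, n = 3), apart in the direction opposite to MTSS1 (limma adjusted p = 0.999). FOXO4 had a difference of -0.0017, and the ezrin relatives MSN and RDX of -0.08 and -0.05. SMAD9 and SMAD1, which serve BMP receptors, were at 0.21 and -0.17. In the MITF family TFEB was at 0.25 and TFEC at -0.12. The metallopeptidase inhibitors TIMP3 and TIMP2 were at 0.47 and 0.33, and the secreted DKK4 and DKK2, both with means below the array medians, at -0.32 and -0.30. All but MTSS2 overlapped between the groups, while 5.16% of all genes lay apart with RWPE1-183FC higher.

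Another 50 genes named in the literature as targets of the miR-183 family, listed from memory, gave 29 measured genes, of which 23 passed the filter. In this list 1 gene was called lower, ZEB1, and 1 higher, TRIB2, against 0.438% and 0.501% of all genes past the filter. ZEB1, a repressor of epithelial genes, was at 4.24, 4.14 and 4.21 in RWPE1-CTRL and at 3.21, 3.36 and 3.63 in RWPE1-183FC. The limma adjusted p for ZEB1 was 0.068, and 0.193 with no filter, and its RWPE1-183FC arrays lay below the array medians. Its call was lost without RWPE1-CTRL replicate 1 or 3 or RWPE1-183FC replicate 1, and in the test over all clusters. TRIB2, a pseudokinase that restrains FOXO factors, was at 6.34, 6.06 and 5.96 in RWPE1-CTRL and at 7.01, 6.76 and 6.80 in RWPE1-183FC (limma adjusted p = 0.119). Of the fits with 1 array left out TRIB2 was called only without RWPE1-183FC replicate 2. It was also not called with no filter, with the filter on the median only or in the test over all clusters. The mean of all clusters of a symbol and an FDR under 0.05 lost the call too, which held in 8 of the 18 alternative settings. The median log2 fold change of the 29 genes was -0.04, with 18 lower and 11 higher means, against 48% lower means over all genes. The groups lay apart with RWPE1-183FC lower in 4 genes and higher in 2, against 4.57% and 5.16% of all genes.

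Genes downstream of the members were counted from lists as well. Of 30 genes that FOXO factors induce, 22 were measured and passed the filter, and none was called. Means were lower in 6 and higher in 16, against 48% lower means over all genes. The median log2 fold change was 0.12. BCL6, a transcriptional repressor, and SESN3, a sestrin of stress responses, had the largest differences, at 0.47 and 0.37, both with overlapping arrays. Groups lay apart with RWPE1-183FC lower in 2 and higher in 0 of the 22, against 4.57% and 5.16% of all genes. The 2 were CCNG2 and IGFBP1, at -0.27 and -0.33 (limma adjusted p = 0.999 for both). Of 27 genes that SMADs induce, 14 were measured and 12 passed the filter. The matrix gene TNC (tenascin C) rose and FN1 (fibronectin) fell, with log2 fold changes of 1.35 and -0.77 (limma adjusted p = 6.68e-06 and 0.0774). Limma with no filter gave adjusted p of 0.0512 for TNC and 0.133 for FN1. TNC and FN1 were the 2 calls among the 12, against 0.939% of all genes past the filter. The call of FN1 was lost without RWPE1-CTRL replicate 1 or 2 or RWPE1-183FC replicate 1 or 3, and over all clusters. The median of the 14 was 0.19, with 12 higher means, against 48% lower means over all genes. Groups lay apart with RWPE1-183FC lower in 1 and higher in 3 of the 14, against 4.57% and 5.16% of all genes. SMAD7, the inhibitory SMAD that feeds back on TGF-beta receptors, was at 4.29 ± 0.11 (SD, n = 3) and 4.84 ± 0.22 (SD, n = 3), apart between the groups but not called (limma adjusted p = 0.603). Of 24 genes that NF-kB induces, 14 were measured, 7 passed the filter and none was called, with a median of -0.04. The adhesion receptor ICAM1 had a log2 difference of 0.46 with no overlap, and the prostaglandin synthase PTGS2 of -0.32 with overlap (limma adjusted p = 0.939 and 0.999). ICAM1 was the only gene of this list whose groups lay apart, while 5.16% of all genes lay apart in its direction.

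**Figure D5:**
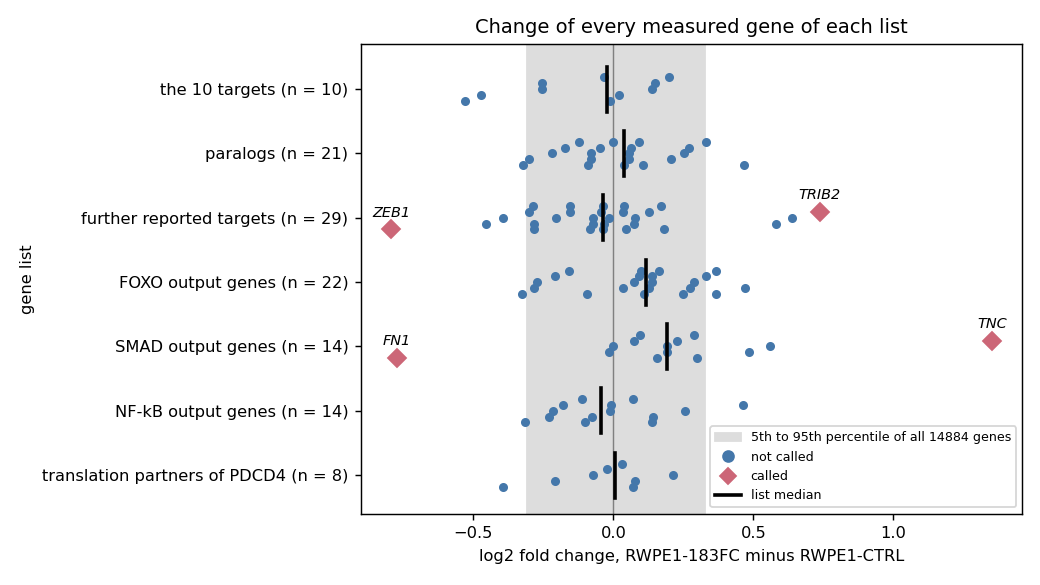
Log2 fold change (horizontal axis) of every measured gene of the 10 targets and of each related list, with called genes as labelled diamonds, list medians as black bars and the range from the 5th to the 95th percentile of all 14884 genes (-0.309 to 0.326) in grey. Of the 10 targets PDCD4 and MTSS1 lie outside the grey range, and the called genes of the other lists are ZEB1, TRIB2, FN1 and TNC.

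The genes whose values ran most like those of PDCD4 across the 6 arrays were YME1L1 (r = 0.994, rho = 0.943), NUTM2A-AS1 (r = 0.992, rho = 0.943) and CCZ1P-OR7E38P (r = 0.99, rho = 1), and none of the 3 was called. For MTSS1 they were CDCA7L (r = 0.985, rho = 0.886), PTN (r = 0.985, rho = 0.714) and BBX (r = 0.982, rho = 0.886), also not called. These are the highest of 9582 correlations for each gene over 6 arrays that share the group difference, and are given as a description.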

How the data were processed

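The deposited values are log2 expression per transcript cluster, made by the authors with RMA (background correction, quantile normalization and probe summary). The R package oligo is named for this in the study's methods, Partek in the submitters' processing notes. Versions are not given in the sources used here. The methods name Human Gene 1.0 ST arrays, and the clusters used here are of the Human Gene 2.0 ST design. Array medians were 3.82 to 3.86 and arrays correlated at 0.974 to 0.988 over genes, and the number of arrays limits the precision.

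Of 53617 clusters 16098 had 1 symbol in the platform annotation, none had several and 37519 had none. Symbols matched RefSeq names by Entrez identifier with 0 changes. The brightest cluster of each symbol was kept, which left 14884 genes. Following the methods, 9583 genes were kept whose median and variance reached the 20th percentile of all genes, and groups were compared with limma 3.58.1 in R 4.3.3 (Benjamini-Hochberg over all genes tested, FDR under 0.2, fold over 1.5). Intervals come from limma with no filter, which gives every gene a value. With the filter on variance the prior degrees of freedom were 175.8, against 5.8 without it, so that standard errors with the filter are nearly equal for all genes. Exact permutation tests were two-sided. In 20 simulations on 14884 genes with 200 changed, the filtered test called 31.3%, 78.4% and 78.2% of genes changed 1.5-fold, 2-fold and 3-fold. Unchanged genes made up 47.7% of its calls, so that it did not hold the FDR limit of 0.2 there. The unfiltered test called 26.1%, 85.8% and 98.5%, with 18.9% of its calls unchanged. The simulated arrays were independent, without deviations shared by a replicate number.

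The 10 genes and the lists were chosen with earlier results of these data known, and the lists were written from memory. Named were the 10, the miR features, at most 2 relatives per family and called genes of each list or else its 2 largest differences. The 3 genes most correlated with each of the 2 members of largest difference were also named. Others named beside them (SMAD7, CCNG2, IGFBP1, the antisense gene of PDCD4 and markers) were chosen after their values were seen. Arrays that share a replicate number deviated from their group means with correlations of 0.101, 0.511 and 0.29 (numbers 1, 2 and 3). Unlike numbers ran from -0.408 to 0.214, and RWPE1-CTRL 3 with RWPE1-183FC 1, at 0.214, exceeded the pair of number 1. The main limma fits took no pairs. Since each same-number value exceeded 0.1, the numbers were also compared as pairs, and a fit with the number as a block was an alternative. The unlike value of 0.214 exceeded 0.1 too, so that this cut does not single out pairs. The pairing was taken from these same data and not from the labels. Figures were drawn with matplotlib 3.10.9.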

Additional observations from a re-analysis of the deposited data

How the results depend on the processing

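The number of called members was 0 under all 18 alternatives, while the count over all genes, 90, became 162 with the replicate block, 36 without the filter, 37 when only the median was filtered, 192 with array weights, 51 at an FDR under 0.05 and 43 to 152 with 1 array left out (43, 152 and 57 without RWPE1-183FC replicates 1, 2 and 3, and 58 without RWPE1-CTRL replicate 1). The replicate block changed no call of a member or miR feature. PDCD4, MTSS1, FOXO3, RECK, DKK3 and MITF kept their direction under all 18 settings. The block, the choice of filter, the test over all clusters and the limits on FDR and fold alter only the test. The fold change under these settings was fixed in advance and is no sign of a stable direction. For the 9 genes with 1 cluster the same holds for the mean of all clusters. The 4 genes nearest 0 changed sign. With 1 array left out, FOXO1 ran from -0.0048 to 0.21, EZR from -0.15 to 0.15, SMAD4 from -0.081 to 0.079 and CYLD from -0.17 to 0.16 on the log2 scale. CYLD was 0.0018 with arrays centred on the median, and EZR 0.00062 with quantile normalization. With array weights EZR was 0.016 and SMAD4 -0.016. Without both replicate 2 arrays, a setting chosen after seeing the data like the block with no filter, FOXO1 was -0.017, EZR 0.036 and SMAD4 -0.094. The cause was not tested. MIR96 over all clusters ran from 2.99 to 3.39 with 1 array left out, called only without RWPE1-CTRL replicate 2. Calls among the further reported targets ran from 0 to 4 and among SMAD-induced genes from 1 to 3, with CCN2 added under array weights or when RWPE1-CTRL replicate 3 or RWPE1-183FC replicate 2 was left out. The relatives and the FOXO-induced genes had at most 1 call each. Only 6 arrays limit what can be detected.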
